A study of Homo sapiens with 8 samples.

Results

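The 35 genes described here are interferon response genes, listed by name: transcription factors of the pathway and the antiviral effectors it switches on. An array probe carried the name of 34 of them, and STAT2 has no probe under its name in the annotation used here. The 34 genes had 47 of the 22184 probes on the array, and 37 of those probes, from 29 genes, were bright enough to be tested. RNA came from Caco2, a line from a human colon carcinoma, and from WM115, a human melanoma line, each divided by flow cytometry with the antibody AC133, which binds an epitope of CD133. There were 4 groups of 2 arrays: Caco2 AC133 high, Caco2 AC133 negative, WM115 AC133 high and WM115 AC133 negative. The high cells were the brightest 10% for AC133, the negative cells had no AC133 staining, and doublets and dead cells were gated away. All Caco2 cells, high and negative, carried MELK-GFP, a lentiviral reporter for green fluorescent protein under the promoter of mouse Melk. They descend from isolated clones, and which clone went into which sort is not given in the labels. WM115 was grown without such a reporter, as far as the labels say, and the labels name no interferon treatment. Each line was sorted 2 times, each sort gave 1 high and 1 negative array, and the repeats are labelled biological duplicates with no word on whether their cultures were separate.

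Interferons are secreted proteins, and those of type I are released by cells that sense viral nucleic acid. Type I interferons act through a receptor whose kinases switch on a transcription factor complex that holds STAT2 and IRF9 and binds the interferon-stimulated response element, ISRE, in the promoters of target genes. Type II interferon, IFN-gamma, acts through the gamma-activated site, GAS, and IRF1 and the guanylate-binding proteins are classic early targets of that arm. In melanoma and other tumour cells the response is known for antiviral defence, antigen display and the attraction of T cells.

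Promoters of 4 members that carry the results below are shown to place these elements, each from 250 bases before to 50 bases after the transcription start, as RefSeq gives them on GRCh38.p14. Capitals mark matches to the ISRE core, which is GAAA, any 2 bases and GAAA again on either strand, or to the GAS, which is TTC, any 3 bases and GAA and reads the same on both strands. ISG15 lies at chr1:1013247-1013546 on the plus strand and has 2 overlapping ISRE cores. IFIT1 lies at chr10:89392373-89392672 on the plus strand and has 2 ISRE cores. IRF1 lies at chr5:132490724-132491023 on the minus strand and has 1 GAS, and no ISRE core in this window. GBP1 lies at chr1:89065159-89065458 on the minus strand and has 1 ISRE core.
ISG15: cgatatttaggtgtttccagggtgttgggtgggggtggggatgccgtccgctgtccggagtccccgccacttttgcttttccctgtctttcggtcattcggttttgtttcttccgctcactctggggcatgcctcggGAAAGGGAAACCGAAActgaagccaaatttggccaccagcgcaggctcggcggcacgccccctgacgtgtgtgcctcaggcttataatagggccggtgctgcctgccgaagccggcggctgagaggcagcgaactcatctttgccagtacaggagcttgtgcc
IFIT1: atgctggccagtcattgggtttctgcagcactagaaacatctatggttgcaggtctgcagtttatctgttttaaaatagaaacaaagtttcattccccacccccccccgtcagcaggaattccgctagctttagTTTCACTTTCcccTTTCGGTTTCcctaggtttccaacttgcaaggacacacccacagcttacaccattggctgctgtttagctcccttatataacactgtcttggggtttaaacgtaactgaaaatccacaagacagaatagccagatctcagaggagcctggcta
IRF1: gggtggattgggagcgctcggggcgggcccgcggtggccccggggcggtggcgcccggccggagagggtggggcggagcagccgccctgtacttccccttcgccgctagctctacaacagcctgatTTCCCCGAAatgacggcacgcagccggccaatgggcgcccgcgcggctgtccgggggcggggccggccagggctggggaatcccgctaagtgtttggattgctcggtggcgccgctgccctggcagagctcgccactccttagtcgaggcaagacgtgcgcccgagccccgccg
GBP1: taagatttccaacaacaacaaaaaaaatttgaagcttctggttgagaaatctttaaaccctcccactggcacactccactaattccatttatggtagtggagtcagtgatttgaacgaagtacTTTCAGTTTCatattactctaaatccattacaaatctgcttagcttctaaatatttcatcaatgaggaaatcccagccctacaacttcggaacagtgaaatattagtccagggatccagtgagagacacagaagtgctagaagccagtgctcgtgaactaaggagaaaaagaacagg
The promoter table matched 26 of the 35 members, and IRF7, IFIT2, IFITM2, MX2, OAS2, OASL, USP18, TRIM22 and GBP2 are not among them. The ISRE core stood in 18 of the 26 member promoters, or 69.2%, and in 996 of all 27305 promoters in the table, or 3.65%. The GAS pattern stood in 7 of the 26, or 26.9%, against 7.88% of all promoters. In BST2, IFI27 and IFITM1 both patterns were found. A match is a stretch of letters and not a site shown to be bound.

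Levels are given as log2 of the background-corrected and quantile-normalized bead signal, in which 1 unit is a 2-fold change and the lowest signal counted as detected lay at 4.68 to 4.84 depending on the array. A level says how bright 1 probe was, so levels are compared between arrays and never between genes. Between 53.7% and 59.2% of probes were detected per array. PROM1, the gene of CD133, was at 9.54 to 11.12 in the 4 high arrays and at 5.72 to 7.06 in the 4 negative arrays, higher in the high cells of each sort. Of 12 colon epithelium markers 11 were detected on every Caco2 array, and 8 or 9 of 9 melanocyte markers on every WM115 array. The WM115 negative array of sort 2 stood apart: it was over 2-fold above all other WM115 arrays at 175 probes and over 2-fold below them all at 37, against 0 to 18 above and 0 to 49 below for the other 7 arrays within their lines. The comparisons over both WM115 sorts are given with and without it, while the differences of sort 2 and the change between sorts are formed from it and have no value without it. In bulk samples like these, a change in how many cells express a gene and a change in its RNA per cell cannot be told apart.

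**Figure D1:**
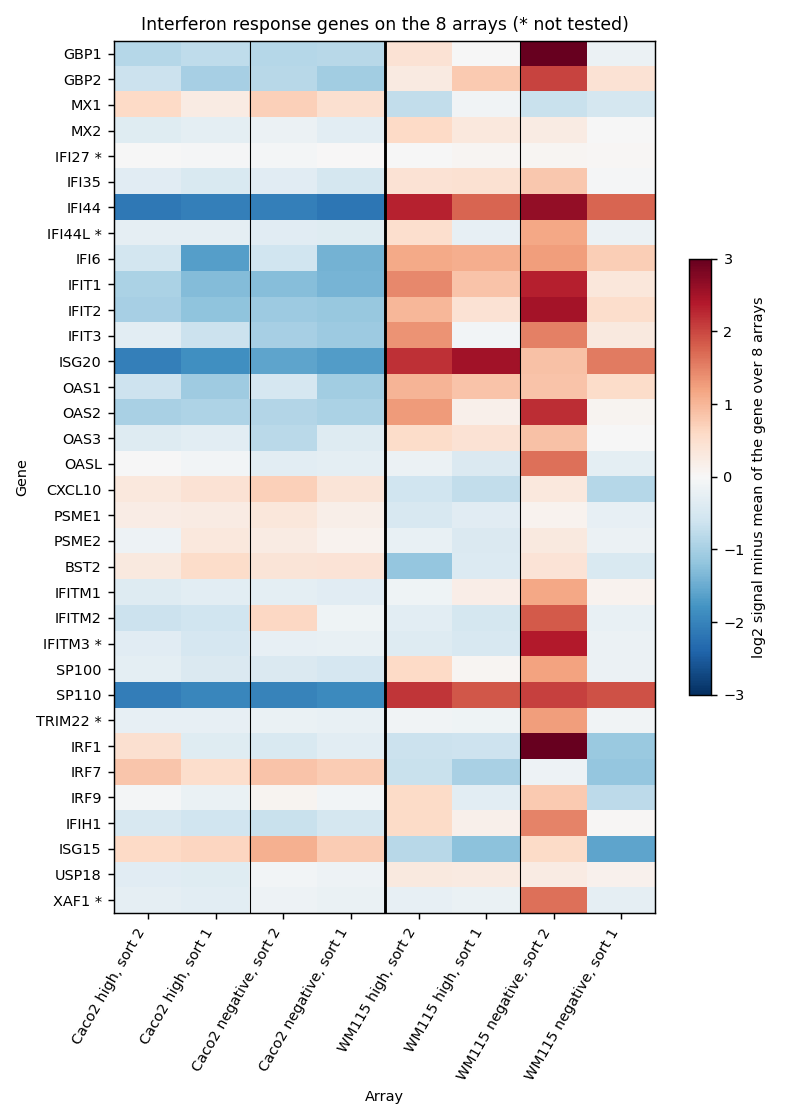
Signal of the brightest probe of each of the 34 measured interferon response genes on the 8 arrays, as log2 signal minus the gene's mean over the 8 arrays; an asterisk marks the genes that were not tested, and colours stop at 3 units either way. GBP1, IRF1 and IFITM3 are darkest on the WM115 negative array of sort 2, and SP110, IFI44 and ISG20 are high on all WM115 arrays and low on all Caco2 arrays.

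The AC133 difference of the interferon response genes in WM115 ran in opposite directions in its sorts. In sort 2 the high cells were below the negative cells for 24 of 29 tested members, with a median difference of -0.59 log2 units, and in sort 1 they were above them for 21 of 29, with a median of 0.15. The medians over all 11214 named genes tested were 0.01 in sort 2 and 0.00 in sort 1. In Caco2 the members' medians were -0.08 in sort 2 and 0.02 in sort 1. Members that were higher in the high cells of sort 1 and lower in those of sort 2 numbered 17 of 29 in WM115, or 58.6%, and the same pattern held for 24.9% of all named genes. With more than 0.3 log2 units required each way it held for 6 members, GBP2, IFI35, IFIT1, IRF1, ISG15 and OAS3, or 20.7%, against 3.22% of all named genes. Over the 29 members the differences of the sorts were not of equal size. In sort 2, 9 members were over 1 log2 unit lower in the high cells, or 31%, against 2.35% of named genes. Of these, IFIT2, IFITM2 and OASL were lower in the high cells of sort 1 too. The largest difference in sort 1 was 0.98, in ISG20, which was higher in the high cells of both sorts.

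The change of the AC133 difference between the sorts, sort 2 minus sort 1, was negative for 25 of 29 members and had a median of -0.84 log2 units, against 0.00 over all named genes. IRF1 alone made up 14.5% of the summed change, and with GBP1, GBP2, IFITM2, ISG15, OASL, BST2 and IFIT2 it made up 60.7%. Not all of these changed direction: IFITM2, OASL and IFIT2 were lower in the high cells of both sorts. BST2 was only 0.05 higher in the high cells of sort 1. Over the other 21 members the mean difference was -0.32 in sort 2 and 0.21 in sort 1, and their changes ran from -1.39, in IFIT1, to 0.34, in ISG20. A limma fit could take its spread from the Caco2 pairs alone, since each term of this change is a single WM115 array. It called no member, where 0.0981% of named genes were called, and 15 of 29 members had an unadjusted p under 0.05, against 7.31% of named genes. These p-values assume that WM115 arrays vary like Caco2 arrays, which was not tested, so the changes are given here as values and nothing is read from the calls. IRF1 had the most negative change at -4.17, followed by GBP1 at -2.79, GBP2 at -2.11 and IFITM2 at -1.84.

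**Figure D2:**
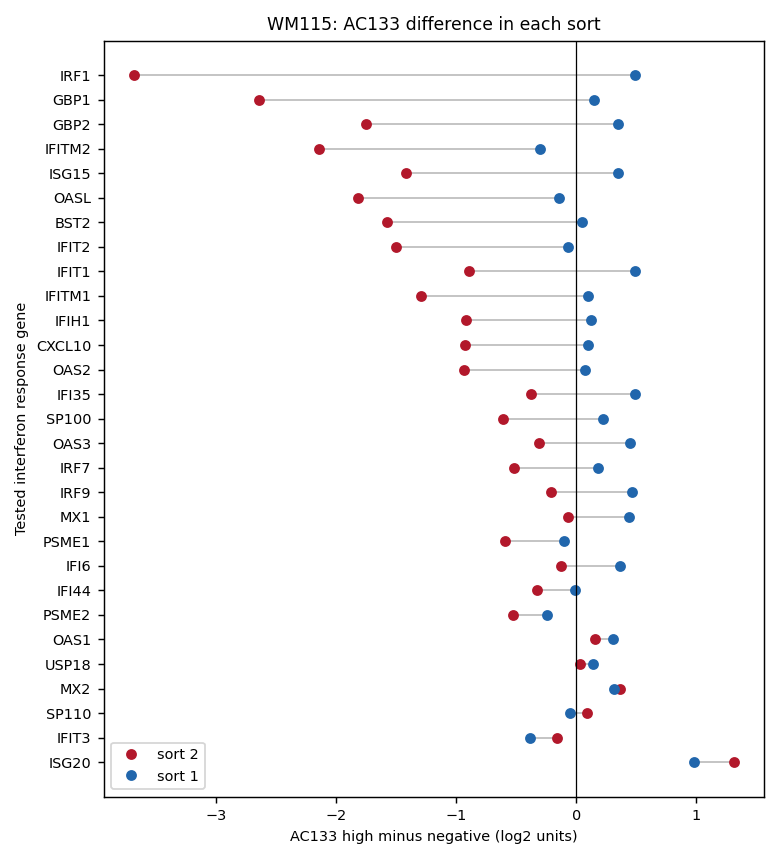
AC133 high minus negative in WM115, in log2 units, for each of the 29 tested interferon response genes, with 1 point for each sort and genes ordered by the change between sorts. Sort 2 lies left of sort 1 for 25 genes, widest for IRF1 at -3.69 in sort 2 and 0.49 in sort 1, and the order turns for MX2, SP110, IFIT3 and ISG20.

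Among the transcription factors IRF1 differed most. IRF1, which binds ISRE-like elements and drives many IFN-gamma targets, had a log2 signal of 5.89 in WM115 high cells and 9.57 in WM115 negative cells of sort 2, and of 5.92 in high and 5.43 in negative cells of sort 1. Only the negative array of sort 2 was high, 14.2-fold above the mean of the other WM115 arrays. The deposited bead signal behind it was 824.8 intensity units with a standard error over 34 beads of 41.1, and the other WM115 arrays had 68.5 to 91.1 units. IRF7, the factor that amplifies type I interferon production, was at 5.39 in high and 5.91 in negative cells of sort 2, and at 5.09 and 4.92 in high and negative cells of sort 1. IRF9, the DNA-binding partner of STAT2, was at 8.23 in high and 8.45 in negative cells of sort 2, against 7.35 in high and 6.88 in negative cells of sort 1. IRF9 was thus higher on both arrays of sort 2, and the fractions of each sort differed by less than the sorts did.

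The guanylate-binding proteins, GTPases that attack the compartments of intracellular pathogens, had the pattern of IRF1 on the WM115 arrays. GBP1 was at 5.68 in high and 8.32 in negative WM115 cells of sort 2, and at 5.23 in high and 5.08 in negative cells of sort 1. Its negative array of sort 2 was 7.97-fold above the mean of the other WM115 arrays. GBP2 was at 5.97 in high and 7.73 in negative cells of sort 2, and at 6.50 in high and 6.15 in negative cells of sort 1, so that it was lowest in the high cells of sort 2. GBP1 and GBP2 are close relatives, and hybridization of one transcript to the other's probe was not tested. The MX proteins, GTPases that trap viral nucleoproteins, did not share this pattern. MX1 was at 5.39 in high and 5.46 in negative cells of sort 2 and at 6.04 in high and 5.60 in negative cells of sort 1, with sort 2 below sort 1 in both fractions. MX2 was at 5.36 in high and 4.99 in negative cells of sort 2 and at 5.06 in high and 4.74 in negative cells of sort 1, above in the high cells both times.

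ISG15, a ubiquitin-like protein that is attached to other proteins, was at 6.94 in high and 8.36 in negative WM115 cells of sort 2, and at 6.54 in high and 6.19 in negative cells of sort 1. IFIH1, the cytosolic RNA sensor MDA5, was at 6.53 in high and 7.44 in negative cells of sort 2, and at 6.11 in high and 5.98 in negative cells of sort 1. For both genes the negative array of sort 2 was the highest of the 4, and the high array of sort 2 came next. USP18, the protease that removes ISG15 and dampens receptor signalling, stayed between 5.04 and 5.20 on all 4 WM115 arrays.

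The IFIT proteins bind viral RNA ends. IFIT1 was at 7.15 in high and 8.05 in negative WM115 cells of sort 2, and at 6.56 in high and 6.07 in negative cells of sort 1. IFIT2 was at 6.61 in high and 8.11 in negative cells of sort 2, and at 6.06 in high and 6.14 in negative cells of sort 1. IFIT3 differed from them: it was at 7.10 in high and 7.26 in negative cells of sort 2 and at 5.65 in high and 6.03 in negative cells of sort 1. Its sorts were thus 1.45 log2 units apart in high cells and 1.22 apart in negative cells, and AC133 high was the lower fraction in both sorts. The other 2 IFIT3 probes gave AC133 differences of 0.13 and -0.07 in sort 2 and -0.71 and 0.50 in sort 1, so the probes of the gene disagree in sign. A second IFIT1 probe was not tested and lay between 4.32 and 4.46. IFI44, an interferon-induced cytoplasmic protein, was at 8.85 in high and 9.17 in negative cells of sort 2 and at 8.28 in high and 8.29 in negative cells of sort 1. IFI35, which can act as an extracellular danger signal, and IFI6, an interferon-induced membrane protein, had sort 2 differences of -0.38 and -0.12 and sort 1 differences of 0.49 and 0.36.

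The OAS enzymes make the short oligoadenylates that switch on the antiviral nuclease RNase L, and they split by member. OASL, a relative that lacks this synthetic activity, was at 4.70 in high and 6.52 in negative WM115 cells of sort 2, and at 4.43 in high and 4.57 in negative cells of sort 1. It was detected on the negative array of sort 2 alone among the WM115 arrays, and its second probe had differences of -0.60 in sort 2 and -0.09 in sort 1. OAS2 was at 6.52 in high and 7.45 in negative cells of sort 2 and at 5.40 in high and 5.33 in negative cells of sort 1, so that both arrays of sort 2 were high. On another OAS2 probe the deposited signal, not normalized between arrays, was 94.9 in high and 108.1 in negative cells of sort 2. In sort 1 it was 64.5 in high and 70.7 in negative cells. The remaining OAS2 probes were dimmer in WM115 and had a higher deposited signal in the high cells of both sorts. OAS3 had differences of -0.31 in sort 2 and 0.45 in sort 1. OAS1 was at 6.84 in high and 6.69 in negative cells of sort 2, and at 6.69 in high and 6.38 in negative cells of sort 1, with the high cells above in both sorts. ISG20, an exonuclease that degrades RNA, had the largest positive AC133 difference of the 29 in each sort. It was at 10.78 in high and 9.46 in negative cells of sort 2, and at 11.11 in high and 10.13 in negative cells of sort 1, so that both high arrays were above both negative arrays.

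Membrane restriction factors block viral entry or exit. BST2, the tetherin that holds budding virus at the cell surface, was at 7.83 in high and 9.41 in negative WM115 cells of sort 2, and at 8.57 in high and 8.53 in negative cells of sort 1. It is among the 8 largest changes, and 54.0% of its change came from the negative cells, the rest from a high array of sort 2 that was the lowest of the 4. IFITM2 was at 5.02 in high and 7.16 in negative cells of sort 2 and at 4.80 in high and 5.10 in negative cells of sort 1. IFITM1 was at 4.84 in high and 6.13 in negative cells of sort 2 and at 5.18 in high and 5.08 in negative cells of sort 1. The IFITM genes, which block virus fusion at membranes, are near-identical copies in parts, and cross-hybridization between their probes was not tested.

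Among genes of nuclear bodies, where SP100 and SP110 are found, SP100 was at 5.46 in high and 6.06 in negative WM115 cells of sort 2 and at 4.92 in high and 4.69 in negative cells of sort 1. The last of these levels lay under 4.74, the lowest detected signal of its array. SP110 stayed between 8.30 and 8.57. PSME1 and PSME2, the subunits of the PA28 activator that helps proteasomes make peptides for antigen display, had sort 2 differences of -0.59 and -0.53 and sort 1 differences of -0.10 and -0.24. CXCL10, the chemokine that draws T cells and natural killer cells, was at 5.01 in high and 5.93 in negative cells of sort 2 and at 4.86 in high and 4.76 in negative cells of sort 1. CXCL10 was highest on the negative array of sort 2, and SP110 was nearly level on the 4 arrays.

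**Figure D3:**
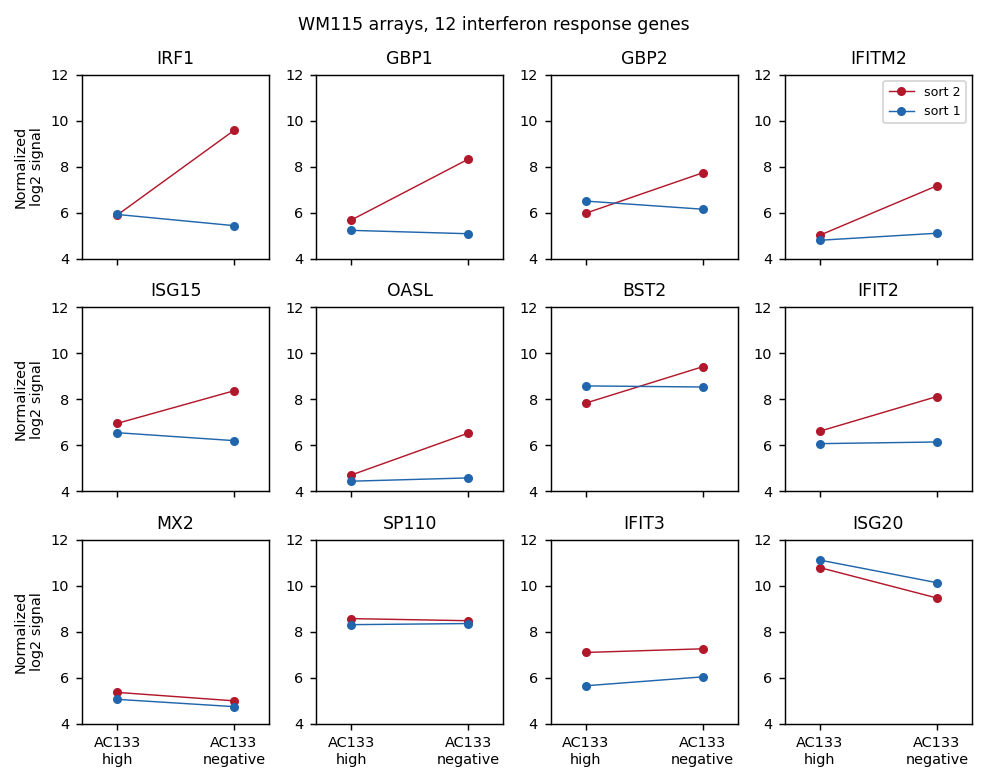
Normalized log2 signal on the 4 WM115 arrays for the 8 interferon response genes with the most negative change of the AC133 difference between sorts and the 4 with a positive one; lines join the arrays of a sort. In the upper 8 panels the negative array of sort 2 is the highest of the 4, and in the lower 4 panels the sorts run nearly parallel.

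The negative cells carried most of the opposite shift. Between sort 2 and sort 1 the negative cells differed by a median of 1.05 log2 units over the 29 members, with 27 higher in sort 2 and 15 of them by over 1 unit. The high cells differed by a median of 0.22, with 21 higher in sort 2 and only IFIT3 and OAS2 by over 1 unit. Over all named genes both medians were near 0, at -0.01 in negative and 0.00 in high cells. The negative array of sort 2 was over 1 log2 unit above each other WM115 array for 7 members, GBP1, GBP2, IFIT2, IFITM2, IRF1, ISG15 and OASL, or 24.1%, against 1.41% of named genes. A smaller difference between the sorts ran through both fractions. Both sort 2 arrays were above both sort 1 arrays for 17 members, or 58.6%, against 18.7% of named genes. In Caco2 this held for 10 members, or 34.5%, against 15.8% of named genes, with medians between sorts of 0.10 in negative and 0.03 in high cells. The differences of sort 1 come from the arrays of sort 1 alone and do not use the array that stood apart.

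**Figure D4:**
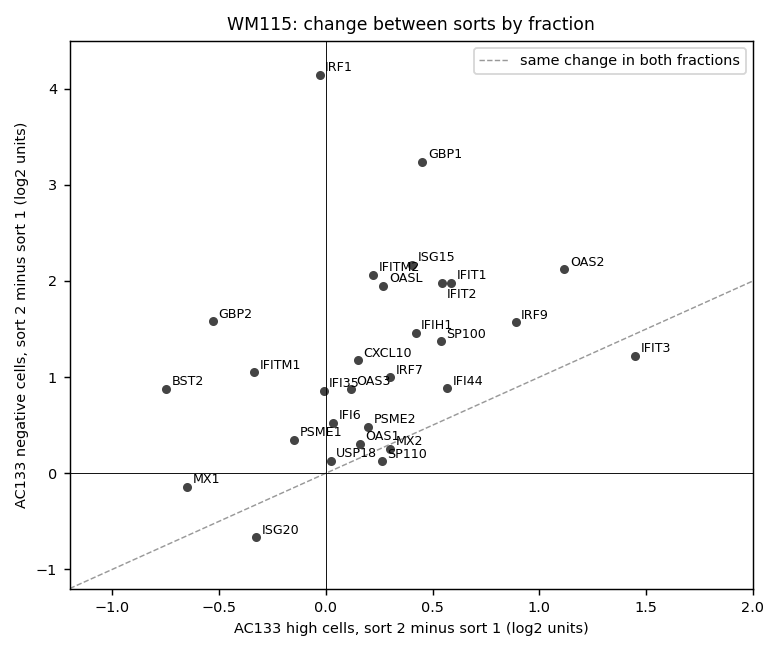
Change from sort 1 to sort 2 in WM115 negative cells, on the vertical axis, against that in WM115 high cells, on the horizontal axis, in log2 units, with 1 point for each of the 29 tested interferon response genes. Most points lie above the dashed line of equal change, IRF1 at 4.14 in negative and -0.03 in high cells, while IFIT3, OAS2 and IRF9 were higher in sort 2 in both fractions.

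The 5 members with a probe that was not tested are given as values only. IFITM3, XAF1, a pro-apoptotic partner of XIAP, and TRIM22, an antiviral ubiquitin ligase, were each detected on the negative array of sort 2 alone. IFITM3 was at 4.44 in high and 7.21 in negative WM115 cells of sort 2, and at 4.36 in high and 4.66 in negative cells of sort 1, which is at least 5.54-fold higher in sort 2 than in sort 1 among negative cells. XAF1 reached 6.29 on that array, at least 2.92-fold higher than in the negative cells of sort 1, and TRIM22 reached 5.83, at least 2.13-fold higher. IFI44L, a relative of IFI44, was detected on both arrays of sort 2, at 5.26 in high and 5.90 in negative cells, and on neither array of sort 1. IFI27 was detected on none of the 8 arrays, with levels of 4.33 to 4.44. These 5 failed the filter because it asks for detection on both arrays of a group, so they have no p-value. Detection on 1 array of a group alone is thus partly set by the filter. The share of all untested genes detected on the negative array of sort 2 alone was not counted. That array also had the largest share of detected probes, 59.2%.

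Taken over both sorts, the comparison of AC133 high with negative WM115 cells called no member by limma, where 0.0178% of named genes were called. At an unadjusted p under 0.05 there were 2 members by limma, ISG20 and BST2, or 6.9%, against 5.03% of named genes, and 0 by the methods' t-test, against 3.75% of named genes. The median over the 29 members was -0.27 log2 units, against 0.01 over all named genes, with 19 members negative and 10 positive. ISG20 had the smallest p, with a mean of 10.95 ± 0.23 in high cells and 9.80 ± 0.47 in negative cells (SD, n = 2 each), a difference of 1.15 (SE 0.24, limma adjusted p 0.362). BST2 came next at -0.77 (SE 0.32, adjusted p 1.00), followed by IFITM2 at -1.22, PSME1 at -0.35, MX2 at 0.34 and IFITM1 at -0.60, all with adjusted p of 1.00. IRF1 differed by -1.60 with an SE of 1.05, since its negative arrays were 4.14 log2 units apart. Members above in the high cells of both sorts were ISG20, MX2, OAS1 and USP18, or 13.8%, against 25.5% of named genes. Members below in both sorts were IFI44, IFIT2, IFIT3, IFITM2, OASL, PSME1 and PSME2, or 24.1%, against 22.6% of named genes.

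Which negative array is used decides this comparison. Without the WM115 negative array of sort 1 the median was -0.88 and 9 members were called, or 31%, against 1.95% of named genes, with ISG20 higher and GBP1, GBP2, IFIT2, IFITM1, IFITM2, IRF1, ISG15 and OASL lower. Without the negative array of sort 2 the median was 0.34 and no member was called, where 0.0268% of named genes were called. ISG15 then differed by 0.55 (adjusted p 1.00) without the array of sort 2, and by -1.62 (adjusted p 0.0156) without that of sort 1. The lone negative array is in each case assumed to vary like the other groups.

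In Caco2 no member was called between AC133 high and negative cells, where 0.847% of named genes were called, and none had an unadjusted p under 0.05 by limma, against 7.9% of named genes. The methods' t-test gave 2 such members, OASL and USP18, or 6.9%, against 7.34% of named genes, and called no probe after adjustment. The median was -0.03 log2 units over the members and -0.00 over all named genes. USP18 was at 4.57 ± 0.02 in high and 4.80 ± 0.05 in negative cells (SD, n = 2 each), detected on 1 negative array alone, at least 1.04-fold lower in the high cells (adjusted p 0.866). IFITM2 was at 4.69 in sort 2 and 4.75 in sort 1 in high cells, not above background, and at 5.95 in sort 2 and 5.21 in sort 1 in negative cells, at least 1.79-fold lower in the high cells (adjusted p 0.866). The counted IFIT3 probe was detected in both high arrays and neither negative array, at least 1.38-fold higher in the high cells. ISG20 differed by -0.31, OAS3 by 0.24 and MX1 by -0.17, and IFIT3 and these 3 had limma adjusted p of 0.924 to 1.00. IRF1 was at 7.02 in high cells of sort 2 and at 6.17 in high cells of sort 1, and at 6.08 and 6.22 in negative cells of sort 2 and sort 1, so that 1 high array stood above the rest. Across the members the differences of the Caco2 sorts kept within -1.26 and 0.94, against -3.69 and 1.32 in WM115.

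Between the lines most interferon response genes differed, and Caco2 was more often the lower. All Caco2 arrays came from cloned cells with the lentiviral reporter, and no WM115 array did as far as the labels say. Line, reporter and cloning therefore cannot be told apart in these differences. Of 29 members 24 were called, or 82.8%, where 60.3% of named genes were called. Caco2 was lower for 18 members, or 62.1%, against 29.9% of named genes, and higher for 6, or 20.7%, against 30.4%. The median difference, Caco2 minus WM115, was -0.83 log2 units over the members and 0.02 over all named genes. Members at background in Caco2 limit these differences, since 8 of the 18 were detected on no Caco2 array, and their folds are lower bounds.

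SP110 was not above background in Caco2, at 4.36 to 4.51, and at 8.30 to 8.57 in WM115, at least 12.6-fold lower in Caco2 (limma adjusted p 1.7e-08), and a second probe differed by -2.25. IFI44 was at 4.37 to 4.49 in Caco2, not above background, and at 8.28 to 9.17 in WM115, at least 14.7-fold lower in Caco2. ISG20 averaged 6.79 ± 0.20 in Caco2 and 10.37 ± 0.73 in WM115 (SD, n = 4 each), a difference of -3.58 (SE 0.17). OAS1 differed by -1.63, with -0.68 on another tested probe, and IFI6 by -2.11. No value of these genes overlapped between the lines, and all 4 Caco2 arrays were below all 4 WM115 arrays for 18 members, or 62.1%, against 28.4% of named genes. In the other direction IRF7 averaged 6.81 ± 0.16 in Caco2 and 5.33 ± 0.44 in WM115, a difference of 1.48 (SE 0.21, adjusted p 3.8e-04), but a second IRF7 probe differed by 0.05 (adjusted p 0.877). ISG15 averaged 8.55 ± 0.20 in Caco2 and 7.01 ± 0.95 in WM115, a difference of 1.54, and MX1 differed by 1.03, CXCL10 by 0.93, BST2 by 0.80 and PSME1 by 0.49. All 4 Caco2 arrays were above all 4 WM115 arrays for these genes other than BST2, which makes 5 members, or 17.2%, against 28.7% of named genes.

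The members not called between lines were PSME2, OASL, IFITM2, IRF1 and IRF9. IRF1 averaged 6.37 ± 0.44 in Caco2 and 6.70 ± 1.93 in WM115, a difference of -0.33. Its direction turned on 1 array: without the WM115 negative array of sort 2 it was higher in Caco2 by 0.71 (adjusted p 0.0200), and without that of sort 1 it was lower, with a difference of -1.36 (adjusted p 7.9e-04). Without the array of sort 2, 25 members were called, or 86.2%, against 58.6% of named genes, and without that of sort 1, 27 were called, or 93.1%, against 58.2%. The corresponding medians over the members were -0.51 for the fit that leaves out sort 2's negative array and -1.15 for the other.

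**Figure D5:**
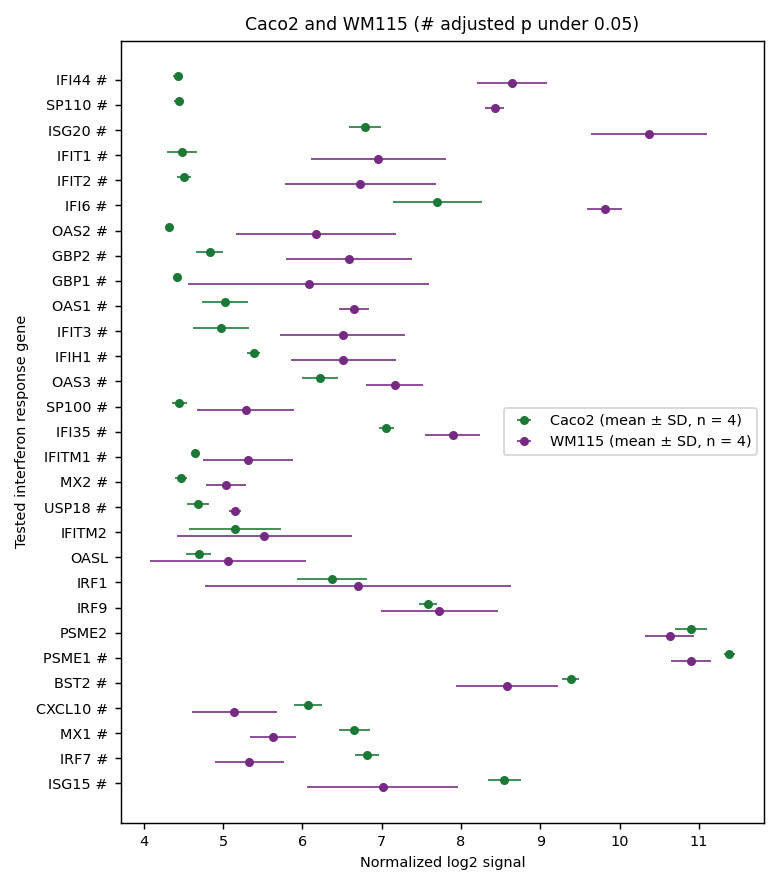
Mean normalized log2 signal with its SD over the 4 arrays of each line, for the 29 tested interferon response genes, ordered by Caco2 minus WM115; a hash marks an adjusted p under 0.05. WM115 lies higher for the 22 genes in the upper part, and the WM115 bars are wider for most genes, widest for IRF1 at an SD of 1.93, against 0.44 in Caco2.

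Whether the AC133 difference itself differed between lines was tested as a limma interaction, and no member was called, where 0.0713% of named genes were called; 1 member, ISG20, had an unadjusted p under 0.05, or 3.45%, against 6.21% of named genes. The median, Caco2 minus WM115, was 0.30 over the members and -0.02 over all named genes. ISG20 was nearest, at -1.46 (SE 0.33, adjusted p 0.280), and IRF1 had 2.05 with an SE of 1.48. Without the WM115 negative array of sort 1, ISG20 was called lower and GBP1, IRF1 and OASL higher, which is 13.8% of members against 1.27% of named genes, with a median of 0.82. Without that of sort 2 none was called, where 0.0357% of named genes were called, and the median was -0.34.

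Genes around the pathway were read from other lists. All 20 interferon genes listed had a probe and none was tested. On the sort 2 negative array of WM115 none was detected, and the detected ones were IFNA21, IFNG and IFNL2 on the WM115 high array of sort 2 and IFNA21 on the Caco2 negative array of sort 1. Of 18 tested genes for receptors, JAK kinases and their downstream factors and regulators, 8 had a negative change between the WM115 sorts, with a median of 0.11. SOCS1, the feedback inhibitor of JAK kinases, was at 4.52 in high and 5.90 in negative cells of sort 2 and at 4.40 in high and 4.35 in negative cells of sort 1 (change -1.44). Among the WM115 arrays it was detected on the negative array of sort 2 alone, at least 2.24-fold above the negative cells of sort 1. Of 15 tested nucleic acid sensing genes 11 had a negative change, with a median of -0.19.

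A further 44 interferon-stimulated genes were listed, of which 30 were tested. Their change between the WM115 sorts was negative for 17 and had a median of -0.27. SAMD9L, an antiviral factor, was at 5.72 in high and 8.02 in negative WM115 cells of sort 2 and at 5.26 in high and 5.19 in negative cells of sort 1 (change -2.37). The change was -2.48 for GBP4, -1.90 for GBP3 and -1.72 for EPSTI1. In WM115 only the negative array of sort 2 detected GBP4, at least 5.34-fold above the negative cells of sort 1. Between lines 14 of these 30 were called lower in Caco2, where 29.9% of named genes were, and 3 higher, where 30.4% of named genes were.

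Among 13 tested antigen presentation genes 10 had a negative change between the WM115 sorts, with a median of -0.73. HLA-B, a class I heavy chain, was at 5.73 in high and 10.09 in negative WM115 cells of sort 2 and at 5.45 in high and 5.82 in negative cells of sort 1 (change -3.99), and HLA genes are close copies of each other. Among 19 tested genes of NF-kB signalling and its chemokines, 16 had a negative change, with a median of -0.78, and the chemokines CCL5 and CXCL8 had changes of -5.11 and -4.76. CCL5 was at 5.91 in high and 10.98 in negative cells of sort 2 and at 5.05 in high and 5.01 in negative cells of sort 1. The summed signal of that list was 9900 intensity units on the sort 2 negative array and 3384 to 3588 on the other WM115 arrays, with 20 of 27 genes detected there and 15 or 16 elsewhere.

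Markers of other cell types were read on the WM115 negative array of sort 2. Of 10 fibroblast and endothelial markers 7 were detected on that WM115 negative array and 3 or 4 on the other WM115 arrays. Their summed signals were 2652 units there and 1105 to 1834 on the other WM115 arrays. LUM, detected on all 4 WM115 arrays, made up the largest part of each sum. It was at 10.26 in high and 11.02 in negative cells of sort 2, and at 10.60 in high and 9.78 in negative cells of sort 1. COL1A1, which was not tested, was at 8.28 on the negative array of sort 2 and at 4.38 to 4.47 on the other WM115 arrays. COL1A2, CDH5 and KDR were detected on no WM115 array. Of 13 blood cell markers 2 were detected on that array and 2 to 4 on the others, with summed signals of 324 and of 378 to 518, and CD3E, CD3D, CD2, MS4A1, CD79A, CD14, TYROBP, NKG7 and HBB were detected on none of the WM115 arrays. The 9 melanocyte markers summed to 14677 units on that array and to 21627 to 24994 on the others. The part of these markers in the interferon gene values was not tested.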

How the data were processed

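For each of the 8 arrays the authors deposited the intensity of every probe, averaged over beads by BeadStudio 3 per the labels, with no normalization between arrays and no statement on background subtraction. A detection p-value, in steps of 1 in 708 against the negative controls, the bead number and the standard error over beads were deposited beside it. The authors' joint table, used as an alternative, holds their quantile-normalized intensity. Since the arrays share a slide, no slide batch was modelled. Probes were named from the platform annotation, with symbols updated for 19695 of them.

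Normexp in limma 3.58.1 (R 4.3.3) corrected the intensity for background with an offset of 16, before quantile normalization and log2. Probes were kept if detected, at p under 0.05, by both arrays of any of the 4 groups, which left 13844 probes for 11214 named genes, and the brightest tested probe stood for its gene. Limma fitted 4 group means to the 8 arrays, with two-sided p-values and Benjamini-Hochberg adjustment across the 13844 probes. For the change between the WM115 sorts each WM115 array had a term of its own and the spread came from the Caco2 pairs, with 2 residual degrees of freedom, so that its p-values assume that WM115 arrays vary like Caco2 arrays. Log2 differences had a median standard error of 0.19 within a line, 0.14 between lines and 0.32 for the sorts, and the number of arrays limits this precision. With 2 arrays a group, no exact permutation p can be below 0.333. A p-value here reflects spread between sorted samples, which may be technical. The sort numbers in the labels pair high and negative arrays, since each sort gave both, and their deviations from the group means correlated at 0.28 in Caco2 and 0.18 in WM115. A bound on a fold sets the mean of the bright group against the lowest detected signal, or the dim probe's own where that is higher, on each dim array. The procedures were tested on simulated data with planted differences. At 1 log2 unit, 54% were called in Caco2, 84% in WM115 and 92% between lines, but 20% in the interaction and 2% in the change between sorts. At 2 units the change between sorts called 40%. False calls made up 4.1% to 8.6% of all calls. All simulated arrays had the same spread at a given probe. The rates for Caco2 and WM115 came from the same fit on different random draws, so they do not rank the lines. A single array standing apart, like the WM115 negative array of sort 2, was not simulated. A member not called within a line, in the interaction or in the change between sorts can thus differ by such amounts.

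The members, the other gene lists, the promoter motifs, the tests and the naming rule were chosen with earlier results of these data known. All 35 members are accounted for. Those given in detail are up to 6 per comparison by smallest p and up to 8 per direction by the change between WM115 sorts, and up to 4 genes of each other list by smallest p in that change. Members described beside these are given by role. Alternatives covered background correction, offset, normalization, the filter, the rule for a gene's probe, the sort as a replicate block, single lines, the authors' table, the methods' t-test and each array left out.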

Additional observations from a re-analysis of the deposited data

Results flagged for a closer look

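For 5 of the 29 tested interferon response genes, or 17.2%, the AC133 difference ran one way in both Caco2 sorts and the other way in both WM115 sorts. The same pattern held for 13.3% of named genes, so the members' share was near that of all genes. The differences between lines, Caco2 minus WM115, were tested as a limma interaction and none passed. ISG20 had -1.46 (adjusted p 0.280), with AC133 differences of -0.46 in sort 2 and -0.15 in sort 1 of Caco2 and of 1.32 in sort 2 and 0.98 in sort 1 of WM115. OASL had 1.25 (adjusted p 0.943), with 0.32 and 0.22 in sorts 2 and 1 of Caco2, whose negative cells were not above background, and -1.82 and -0.14 in sorts 2 and 1 of WM115. IFIT3 had 0.83 (adjusted p 0.980), with 0.68 and 0.44 in sorts 2 and 1 of Caco2, whose negative cells were again not above background, and -0.16 and -0.39 in sorts 2 and 1 of WM115. These are values of 1 IFIT3 probe, and the probes of the gene disagree in sign in WM115. USP18 had -0.31 (adjusted p 0.962) and OAS1 had -0.30 (adjusted p 0.998), with no sort of either line past 0.31 in size.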

How the results depend on the processing

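The following values changed most. Counts of called members are given here without the share of all named genes called under the same setting. A change in such a count can therefore come from the members or from the call rate of all genes, and nothing is read from it. Between lines, on probes detected on all 8 arrays, 12 members were called, 6 in each direction, with a median of -0.14, and with an offset of 50 the median was -0.41. The Caco2 median turned to 0.010 with the mean over the probes of a gene. The change between WM115 sorts, with its spread from Caco2, called 2 members, GBP1 and IRF1, without background correction and in the authors' table. Its median was -0.70 on probes detected on all 8 arrays, -0.73 at a detection p under 0.01, -0.93 with median scaling, -0.65 without background correction, -0.57 with an offset of 50 and -0.64 in the authors' table. With 1 array left out the count ranged from 0 to 9 in WM115, 20 to 27 between lines and 0 to 4 for the interaction, and the medians ranged from -0.88 to 0.34 in WM115, -1.15 to -0.51 between lines and -0.34 to 0.82 for the interaction, the ends of each given by the 2 WM115 negative arrays. The Caco2 median then ranged from -0.047 to 0.013, turning without the Caco2 negative array of sort 2. Single differences turned for IRF1 in the interaction, from -0.023 to 4.12 with 1 array left out, for MX1 in Caco2, from -0.34 to 0.0086, and for SP110 between sorts, at -0.061 with the mean over probes and -0.063 with median scaling. The causes were not tested. With the sort as a replicate block 0, 0, 24 and 0 members were called in Caco2, in WM115, between lines and in the interaction, as without it. The methods' t-test called 2 members in Caco2, OASL and USP18, and 0 in WM115 before adjustment, and no probe after it. The change between sorts could not be fitted without a WM115 array, in WM115 alone or with the block. Signals near background limit the size of differences for members at background in 1 group.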
